A study of Mus musculus with 12 samples.

Results

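Genes of the integrated stress response and the unfolded protein response (UPR) were followed in mouse brain after intracerebral hemorrhage (ICH). The 10 members, *Atf3*, *Atf4*, *Ddit3*, *Trib3*, *Chac1*, *Asns*, *Hspa5*, *Hsp90b1*, *Pdia4* and *Sdf2l1*, were taken by symbol from the 54833 genes of the count table. *Ddit3* stands on 2 rows there, and the second row, a separate gene model, held 0 counts in every library and was set aside. All 10 genes are protein coding, and all 10 passed the filter on low counts that left 21495 genes for the tests.

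The study asked how age alters the transcriptome of perihematomal tissue. Libraries were made from the ipsilateral caudate putamen of wild-type male C57BL/6 mice that were young (8 to 10 weeks) or aged (20 to 22 months), 24 h after surgery. ICH was induced by type IV collagenase, an enzyme that breaks the basement membrane of vessels so that they bleed, and sham mice received saline. The 4 groups, sham and ICH at each age, had 3 libraries each, and a library pooled 2 or 3 mice, so that errors given here describe pools rather than animals.

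The integrated stress response is a brake on protein synthesis: kinases that sense amino acid shortage, viral RNA, heme shortage or misfolded protein phosphorylate the initiation factor eIF2, general translation falls, and the transcription factor ATF4 is made in its place. ATF4 and its partner CHOP (encoded by *Ddit3*) switch on genes for amino acid supply, for feedback and for cell death. The UPR starts in the endoplasmic reticulum (ER), where the sensors PERK, IRE1 and ATF6 respond to unfolded proteins, and its best known output is a set of chaperones that ATF6 and XBP1 turn on through a shared promoter element.

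Promoter sequences are shown for the genes with a match to the ER stress response element or to the composite element of C/EBP and ATF factors. Genes with a match to the composite element moved in different directions here. In the promoters of RefSeq (build GRCm38.p6, 250 bases before and 50 after each start site, 1 promoter for each of the 10 genes), the ER stress response element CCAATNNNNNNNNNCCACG was searched on both strands. It was present in 0.119% of the 32851 promoters and in 2 of the 10 genes, *Hspa5*, from 65 to 47 bases before the start site, and *Hsp90b1*, from 212 to 194 and again from 107 to 89 bases before it. Only exact matches to these letters were searched, and inexact copies are not counted. Capitals mark the fixed letters of the element.
Hspa5 (chr2:34771965-34772083, plus strand): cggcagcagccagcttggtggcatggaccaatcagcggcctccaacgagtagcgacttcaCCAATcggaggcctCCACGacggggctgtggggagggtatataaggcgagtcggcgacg
Hsp90b1, distal (chr10:86705598-86705694, minus strand): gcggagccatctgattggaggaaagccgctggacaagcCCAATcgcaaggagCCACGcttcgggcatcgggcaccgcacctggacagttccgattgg
Hsp90b1, proximal (chr10:86705493-86705611, minus strand): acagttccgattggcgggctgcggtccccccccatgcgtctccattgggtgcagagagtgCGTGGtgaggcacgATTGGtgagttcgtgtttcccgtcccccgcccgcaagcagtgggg

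The composite element of C/EBP and ATF factors, to which ATF4 and CHOP bind, was searched as TGATGNAA on both strands, with the same promoters. It was present in 3.97% of the 32851 promoters and in 4 of the 10 genes, and the capitals again mark its fixed letters. In *Trib3* it lies after the start site, from 15 to 22 bases into the transcript, and in *Atf3*, *Chac1* and *Asns* it lies before it, starting 110, 193 and 23 bases upstream.
Atf3 (chr1:191183396-191183503, minus strand): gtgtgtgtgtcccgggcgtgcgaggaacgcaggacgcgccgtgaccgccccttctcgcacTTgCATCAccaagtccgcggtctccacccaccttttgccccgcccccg
Trib3 (chr2:152344028-152344057, minus strand): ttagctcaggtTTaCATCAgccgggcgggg
Chac1 (chr2:119350992-119351096, plus strand): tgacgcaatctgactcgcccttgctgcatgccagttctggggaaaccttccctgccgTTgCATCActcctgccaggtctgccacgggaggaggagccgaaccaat
Asns (chr6:7693210-7693292, minus strand): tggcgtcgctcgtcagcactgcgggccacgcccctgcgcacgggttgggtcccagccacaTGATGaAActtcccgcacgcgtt
A match in these windows is a description of letters, not of a bound site.

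In every library the genes were detected, at depths of 28410896 to 37785160 counts, and on the FPKM scale, which allows genes to be compared because it is divided by length, their mean levels in young sham ran from 0.250 ± 0.0307 (SD, n = 3) for *Trib3* to 75.0 ± 5.64 for *Hsp90b1*. The ER chaperones *Hsp90b1* and *Hspa5* headed the order in both sham groups, and their ranges overlapped in young sham, 69.7 to 80.9 FPKM for *Hsp90b1* and 68.9 to 71.8 FPKM for *Hspa5*. Next came *Atf4*, *Asns* and *Pdia4* with 42.1, 32.5 and 25.9 FPKM in young sham, then *Sdf2l1* and *Ddit3* with 11.3 and 10.6 FPKM, and *Chac1* and *Atf3* with 3.28 and 0.597 FPKM. After ICH *Hspa5* headed the order at both ages, with 101 ± 31.4 FPKM in young ICH and 94.3 ± 2.34 FPKM in aged ICH. In aged ICH the lowest *Hspa5* library, 92.7 FPKM, lay above the highest *Hsp90b1* library, 77.4 FPKM. *Atf3* exchanged places with *Chac1*, which it exceeded in every aged ICH library, with 4.77 to 6.79 against 2.08 to 2.27 FPKM.

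After ICH, *Atf3* and *Ddit3*, which encode stress transcription factors, and the chaperone gene *Sdf2l1* rose at both ages, *Trib3* rose in young mice, *Asns* fell in young mice and *Chac1* fell in aged mice. In young ICH vs. young sham, 4 of the 10 genes rose (*Atf3*, *Trib3*, *Sdf2l1* and *Ddit3*) and 1 fell (*Asns*) at an adjusted *P* under 0.05 in edgeR's quasi-likelihood test, where 19.1% of all genes tested were called, 9.89% higher and 9.23% lower. In aged ICH vs. aged sham, 3 rose (*Atf3*, *Sdf2l1* and *Ddit3*) and 1 fell (*Chac1*), where 13.2% of all genes were called, 7% higher and 6.15% lower. The median log2FC of the 10 genes was 0.36 in young and 0.34 in aged mice, against 0.02 and 0.00 over all genes tested. Groups did not overlap for 8 of the 10 genes in young and for 9 of the 10 in aged mice, as was the case for 35% and 35.1% of all genes tested. At an unadjusted *P* under 0.05 the test gave 8 of the 10 in young and 9 of the 10 in aged mice, against 33.2% and 28.9% of all genes. The criterion of the study, FC above 1.5 or below 0.67 with an unadjusted *P* under 0.05, was met by 3 of the 10 in young and 2 of the 10 in aged mice, against 12.2% and 10.1% of all genes. Fewer cells of a type and less RNA per cell cannot be told apart in such bulk tissue.

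**Figure D1:**
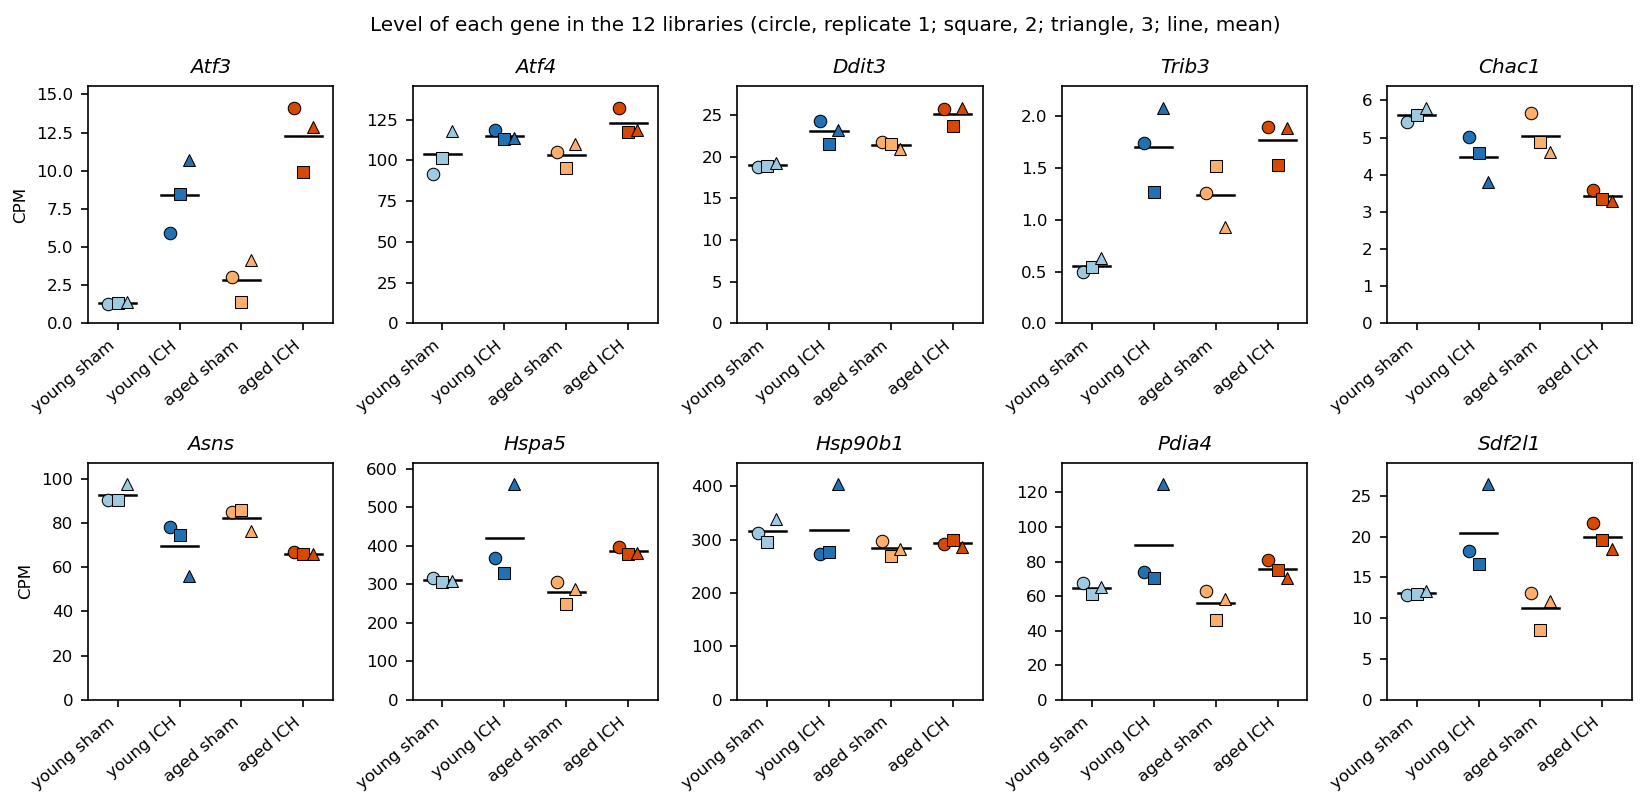
Level of each of the 10 genes in every library, in CPM (vertical axes from 0, a scale for each gene), by group; a symbol is 1 library, with its shape giving the replicate number, and the line is the group mean. *Atf3* and *Trib3* are high in all ICH libraries relative to young sham, while young ICH replicate 3 lies far above the other two young ICH libraries for *Hspa5*, *Hsp90b1*, *Pdia4* and *Sdf2l1*.

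Of the transcription factors, *Atf3* encodes a factor of the ATF/CREB family that is induced early by many kinds of stress and injury. Its level in young sham was 1.24, 1.36 and 1.42 CPM (counts scaled to a library size that is normalized between libraries), and in young ICH 5.95, 8.49 and 10.7 CPM. In aged sham it was 3.01, 1.38 and 4.16 CPM, and in aged ICH 14.1, 9.89 and 12.9 CPM. Every ICH library lay above every sham library of either age, and aged sham spread more widely than young sham. The gene (chr1:191170296-191218039, minus strand) rose 6.24-fold in young mice, a log2FC of 2.64 ± 0.35 (SE; adjusted *P* = 0.00147, edgeR), and 4.29-fold in aged mice, a log2FC of 2.10 ± 0.33 (adjusted *P* = 0.00505, edgeR). Markers of monocytes and macrophages, 8 genes led by *Lyz2* with none at 0, moved alongside it, with summed levels of 18.7 to 27.0 CPM in young sham, 79.4 to 127 CPM in young ICH, 23.3 to 76.9 CPM in aged sham and 123 to 165 CPM in aged ICH. Within aged sham, the library with the lowest *Atf3*, replicate 2, also had the lowest sum of these markers, and replicate 3 had the highest of both. Over all 12 libraries *Atf3* was highest in aged ICH replicate 1, where 1 of the 8 markers was highest. Aged ICH replicate 3 was the highest library for 4 of the 8. Neutrophil markers, 10 genes led by *Csf3r*, summed to 10.2 to 12.7, 19.8 to 36.2, 14.6 to 26.1 and 37.0 to 52.9 CPM in the same order of groups. *Csf3r* alone had mean levels of 9.60, 16.3, 12.8 and 19.7 CPM, with log2FC of 0.76 in young and 0.62 in aged mice. The median log2FC of the 8 neutrophil markers tested was larger, 3.08 in young and 1.82 in aged mice. Among those tested, *Ltf* and *Retnlg* were near 0 in young sham, with means of 0.0092 and 0.0106 CPM. *Ly6g* and *Camp* were too low to be tested, with group means up to 0.042 and 0.232 CPM. Their ICH and sham groups overlapped at both ages. The part of either cell type in the level of *Atf3* was not tested.

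*Atf4* encodes the central factor of the integrated stress response and is controlled mainly at translation, so that its mRNA need not follow the protein. It was measured at 91.9, 101 and 118 CPM in young sham and at 118, 113 and 114 CPM in young ICH. In aged sham it was at 105, 95.4 and 110.3 CPM, and in aged ICH at 132, 118 and 119 CPM. The young groups overlapped and the aged groups did not. Neither difference passed the test, with log2FC of 0.15 ± 0.09 in young mice (adjusted *P* = 0.27, edgeR) and 0.25 ± 0.09 in aged mice (adjusted *P* = 0.0939, edgeR), although limma on log2(FPKM + 1) called the aged difference (0.31, adjusted *P* = 0.0449). The gene lies at chr15:80255184-80257541 on the plus strand.

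*Ddit3* (chr10:127290774-127296288, plus strand) encodes CHOP, which acts late in the response and favors cell death. Its levels in young sham were 18.8, 18.9 and 19.2 CPM, and in young ICH they were 24.3, 21.6 and 23.3 CPM. In aged sham they were 21.8, 21.5 and 20.9 CPM, and in aged ICH 25.7, 23.6 and 25.9 CPM. ICH libraries exceeded sham libraries of their own age, and aged sham lay above young sham and reached the lowest young ICH library. The rise was small, with log2FC of 0.28 ± 0.07 in young (adjusted *P* = 0.0141, edgeR) and 0.23 ± 0.07 in aged mice (adjusted *P* = 0.042, edgeR). The aged call was lost with no filter on low counts (adjusted *P* = 0.166), with only the groups compared (0.0547) and without any 1 of 8 libraries (up to 0.149), namely all young sham, all aged sham and aged ICH replicates 1 and 3, and the young call with no filter (0.0629), with only the groups compared (0.0591) and without young sham replicate 2 (0.0535), all in edgeR. Exons of the second *Ddit3* model on the same strand, and of *Mars* and *Gm4189* on the opposite strand, overlap this gene. Whether counting used the strand is not given in the sources used, and reads of these genes may not have been told apart.

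*Trib3* encodes a pseudokinase that ATF4 and CHOP induce and that restrains ATF4 and AKT signaling. It was the lowest of the 10 genes, with 17 to 68 counts per library. Young sham held 0.497, 0.539 and 0.627 CPM and young ICH 1.74, 1.26 and 2.08 CPM. Aged sham held 1.26, 1.52 and 0.928 CPM and aged ICH 1.90, 1.52 and 1.89 CPM. All libraries outside young sham lay above those of young sham, and the aged groups were separated only by the narrow gap between replicate 2 of each. The gene (chr2:152337422-152344032, minus strand) rose 3.06-fold in young mice, with a log2FC of 1.61 ± 0.25 (adjusted *P* = 0.00261, edgeR). In aged mice the log2FC was 0.52 ± 0.24, which did not pass the test (adjusted *P* = 0.168, edgeR).

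*Chac1* and *Asns* went the other way. *Chac1*, an enzyme that degrades glutathione and is a well known target of ATF4 and CHOP, was at 5.42, 5.61 and 5.81 CPM in young sham and at 5.02, 4.59 and 3.81 CPM in young ICH. In aged sham it was at 5.66, 4.89 and 4.61 CPM and in aged ICH at 3.60, 3.35 and 3.30 CPM. ICH libraries lay below sham libraries at both ages. The gene (chr2:119351229-119354381, plus strand) fell in aged mice, with a log2FC of -0.56 ± 0.13 (adjusted *P* = 0.0207, edgeR), and had a log2FC of -0.33 ± 0.13 in young mice, which did not pass the test (adjusted *P* = 0.11, edgeR). Leaving out replicate 1 or replicate 2 of aged sham took the aged call away (adjusted *P* of 0.0816 and 0.0516, edgeR), as did leaving out replicate 1 or replicate 3 of aged ICH (0.063 and 0.0701).

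*Asns* encodes asparagine synthetase, which ATF4 induces when amino acids run short. Young sham measured 90.4, 90.5 and 97.5 CPM and young ICH 78.2, 74.4 and 56.1 CPM. Aged sham measured 84.8, 85.9 and 76.2 CPM and aged ICH 66.7, 65.8 and 65.8 CPM. Every ICH library of an age was below every sham library of that age, and the lowest of all was young ICH replicate 3. The gene (chr6:7675169-7693254, minus strand) fell in young mice, with a log2FC of -0.42 ± 0.10 (adjusted *P* = 0.0173, edgeR), a call lost with only the groups compared (0.0671) and without young sham replicate 3 (0.0592). In aged mice its log2FC was -0.32 ± 0.10 (adjusted *P* = 0.0656, edgeR; 0.0318 by DESeq2). The aged fall passed the test with only the groups compared (adjusted *P* = 0.0229, edgeR). It also passed without young ICH replicate 1 (0.0491) or young ICH replicate 3 (0.00747), so the calls do not set the ages apart. Of 6 neuronal markers, led by *Snap25* with none at 0, 3 were called lower in young and 0 in aged mice, against 9.23% and 6.15% of all genes. All 6 had a negative log2FC at both ages, with medians of -0.36 in young and -0.18 in aged mice. Groups did not overlap for 3 of the 6 in young and 4 in aged mice, against 35% and 35.1% of all genes. Summed levels of the 6 were 6136 to 7325 CPM in young sham, 4349 to 5754 CPM in young ICH, 5961 to 6607 CPM in aged sham and 4841 to 5365 CPM in aged ICH. Young ICH replicate 3 had the lowest of these sums as well as the lowest *Asns*, and what part neurons had in the level of *Asns* was not tested.

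Thus the 4 genes with the C/EBP and ATF composite element did not move as one, since *Atf3* and *Trib3* rose in young mice, *Asns* fell there, and *Chac1* fell in aged mice.

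**Figure D2:**
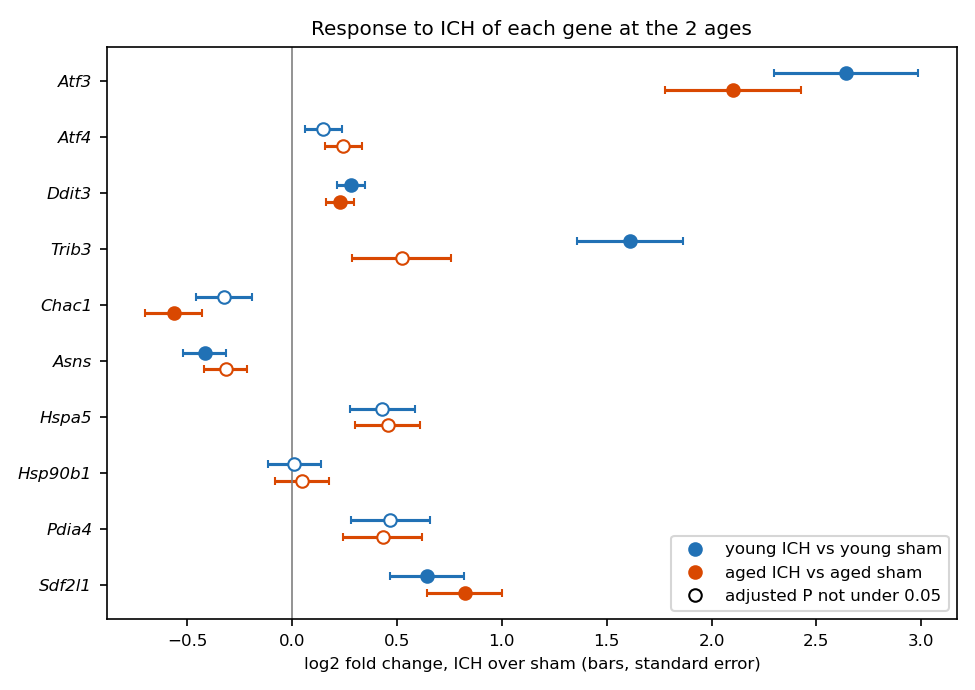
Log2 fold change of ICH over sham (horizontal axis) for each gene (vertical axis), in young (blue) and aged (orange) mice; bars are standard errors, n = 3 libraries per group, and filled points passed an adjusted *P* under 0.05 in edgeR's test. *Atf3* lies farthest to the right at both ages, *Chac1* and *Asns* lie left of 0, and *Trib3* is the gene whose points for the 2 ages lie farthest apart.

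Of the 4 ER chaperones among the 10 genes, *Sdf2l1* passed the test at both ages and the other three at neither in the model of all 12 libraries. It encodes a small ER protein that works with the chaperone BiP and is a sensitive target of the UPR. Young sham held 12.9, 13.0 and 13.4 CPM, and young ICH 18.3, 16.6 and 26.4 CPM. Aged sham held 13.1, 8.56 and 12.1 CPM, and aged ICH 21.7, 19.6 and 18.5 CPM. No ICH library reached down to the sham range of either age. The log2FC were 0.64 ± 0.18 in young (adjusted *P* = 0.0277, edgeR) and 0.82 ± 0.18 in aged mice (adjusted *P* = 0.0142, edgeR), for a gene at chr16:17130138-17132383 on the minus strand. The young call was lost with only the groups compared (adjusted *P* = 0.0504, edgeR) and without young sham replicate 1, 2 or 3 or young ICH replicate 3 (adjusted *P* of 0.068, 0.0864, 0.0656 and 0.0977, edgeR), and the aged call without aged ICH replicate 1 (adjusted *P* = 0.0642, edgeR).

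*Hspa5* (chr2:34771970-34777547, plus strand) encodes BiP, the main Hsp70 chaperone of the ER, which holds the UPR sensors inactive until it is drawn away by unfolded proteins. Young sham measured 317, 306 and 309 CPM and young ICH 368, 329 and 559.9 CPM. Aged sham measured 305, 249.7 and 287 CPM and aged ICH 396, 379 and 379.8 CPM. All ICH libraries were above all sham libraries. The log2FC of 0.43 ± 0.16 in young (adjusted *P* = 0.0752, edgeR) and 0.46 ± 0.16 in aged mice (adjusted *P* = 0.0774, edgeR) did not pass the test in the model of all 12 libraries. DESeq2 called both, with adjusted *P* of 0.0429 and 0.0329, and edgeR on the aged libraries alone called the aged difference (adjusted *P* = 0.019).

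*Pdia4*, a disulfide isomerase at chr6:47796141-47813430 on the minus strand, resembled *Hspa5*. It was at 67.7, 61.3 and 65.5 CPM in young sham and at 73.7, 70.5 and 125 CPM in young ICH. It was at 63.2, 46.1 and 58.5 CPM in aged sham and at 81.1, 74.9 and 70.4 CPM in aged ICH. ICH and sham did not overlap at either age, yet the log2FC of 0.47 ± 0.19 in young (adjusted *P* = 0.105, edgeR) and 0.43 ± 0.19 in aged mice (adjusted *P* = 0.155, edgeR) did not pass the test.

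*Hsp90b1* (chr10:86690209-86705509, minus strand), which encodes GRP94, the Hsp90 of the ER, differed from the other chaperones in that its groups overlapped at both ages. Its levels were 313, 295 and 339 CPM in young sham and 273, 277 and 404 CPM in young ICH. They were 297, 270.1 and 283 CPM in aged sham and 292, 300.0 and 287 CPM in aged ICH. The log2FC were 0.01 ± 0.13 (adjusted *P* = 0.965, edgeR) and 0.05 ± 0.13 (adjusted *P* = 0.847, edgeR). An exact match to the letters of the ER stress response element stood at 2 positions in its promoter and at 1 in that of *Hspa5*. The promoters of *Pdia4* and *Sdf2l1* held no exact match. Inexact copies were not searched, so these are not counts of working elements.

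One library weighed on these chaperone values. Young ICH replicate 3 was the highest of the 12 libraries for 5 of the 10 genes and for 11 of 15 further ER chaperones and folding enzymes, against 12.98% of all genes tested. Relative to the mean of the other two young ICH libraries, it held 1.61 times the *Hspa5*, 1.47 times the *Hsp90b1*, 1.73 times the *Pdia4* and 1.52 times the *Sdf2l1*, while the median ratio over all genes tested was 0.995. The same library had a summed level of 4054 CPM of the 6 choroid plexus markers, led by *Ttr*, against 52.8 and 9.62 CPM in the other two young ICH libraries. In aged ICH these markers summed to 1550, 1965 and 39.5 CPM. In the library with the lowest sum, *Hspa5* was at 379.8 CPM, between its levels in the other aged ICH libraries. *Hsp90b1*, *Pdia4* and *Sdf2l1* were each lowest there among the aged ICH libraries. Sham libraries had 53.1 to 487 CPM of the choroid plexus markers in young and 54.9 to 86.0 CPM in aged mice, and none of the 6 was at 0 throughout a group.

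Without young ICH replicate 3, the young log2FC of *Sdf2l1* was 0.41 and no longer passed the test (adjusted *P* = 0.0977, edgeR), those of *Hspa5* and *Pdia4* were 0.17 and 0.15, and that of *Hsp90b1* was -0.20. The aged log2FC of *Hspa5* and *Pdia4* then kept their size, at 0.46 and 0.43, and passed the test with adjusted *P* of 0.00473 and 0.0191 in edgeR, since the spread is estimated over all groups. The choroid plexus lies beside the caudate putamen, and its part in the chaperone levels of young ICH replicate 3 or of the aged ICH libraries was not tested.

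**Figure D3:**
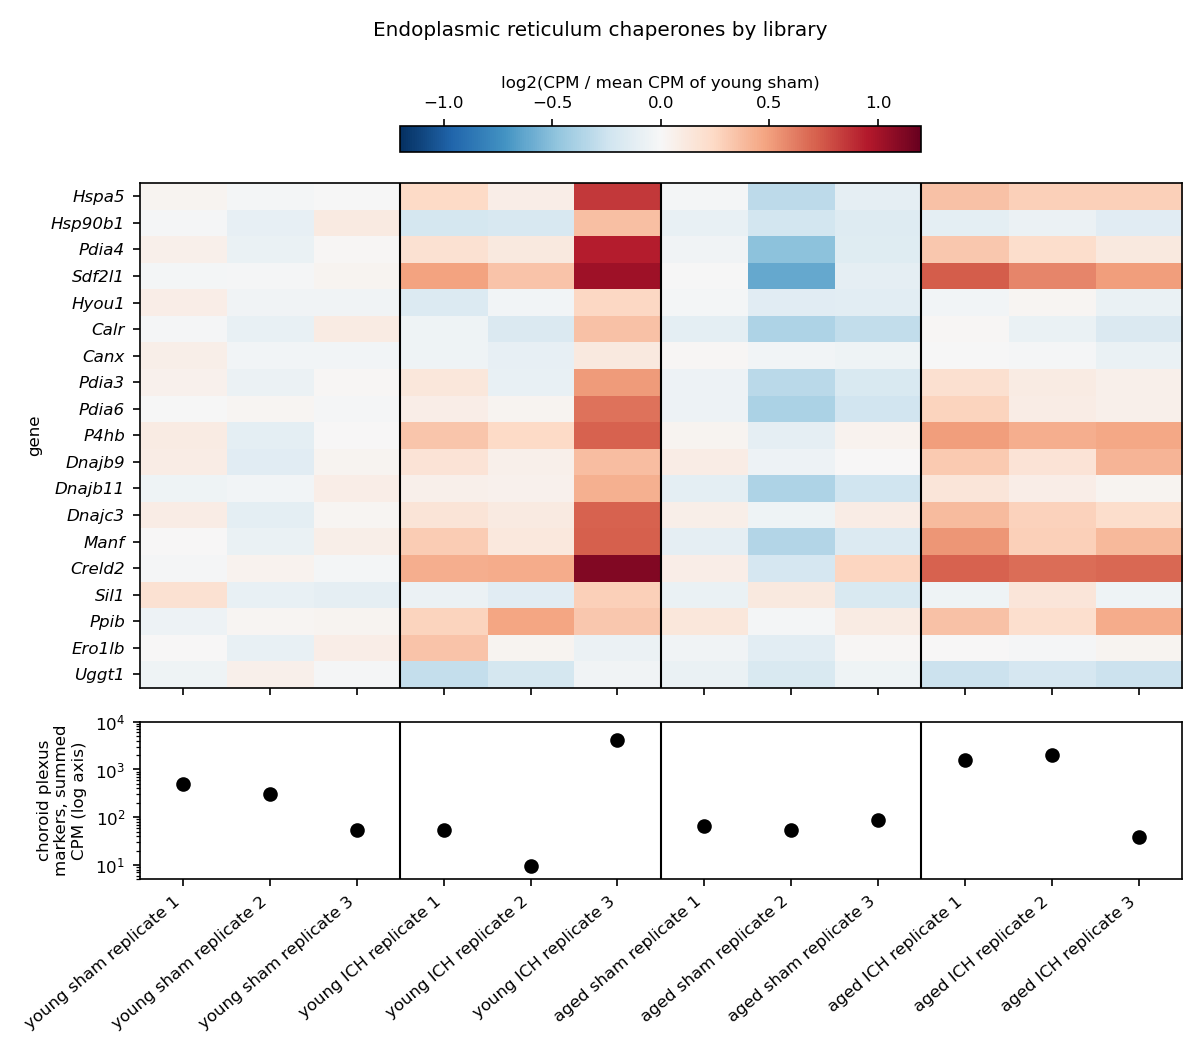
Top, log2 ratio of each library's CPM to the mean of young sham (color) for the 4 ER chaperones of the 10 genes and 15 further ER chaperones and folding enzymes (rows) in the 12 libraries (columns, vertical lines between groups); bottom, summed CPM of the 6 choroid plexus markers on a log axis. Young ICH replicate 3 is the darkest column and has the highest marker sum, 4054 CPM, and the sums of the 3 aged ICH libraries run from 39.5 to 1965 CPM.

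All 9 markers of striatal projection neurons were detected in each group. None was called in either comparison with sham, where 19.1% of all genes were called in young and 13.2% in aged mice. Yet all 9 had a negative log2FC at both ages. Their median log2FC was -0.95 in young and -1.13 in aged mice, against 0.02 and 0.00 over all genes tested. Their summed level varied from 325 CPM in aged ICH replicate 1 to 3024 CPM in young sham replicate 1. Within groups it ranged from 513 to 1725 CPM in young ICH and from 325 to 1912 CPM in aged ICH. The part of this spread, and of the lower marker levels after ICH, in the levels above was not tested.

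The next question was whether age itself shifted these genes. None of the 10 genes passed the test in aged sham vs. young sham, where 0.102% of all genes were called, in aged ICH vs. young ICH, where 0.0558% were called, or in the interaction of age and ICH, where no gene was called. By unadjusted *P* under 0.05 in edgeR, 3 of the 10 differed between the sham groups (12.3% of all genes), 1 between the ICH groups (9.54% of all genes) and 1 in the interaction (2.82% of all genes). Groups did not overlap for 4 of the 10 between the sham groups (21% of all genes) and for 1 between the ICH groups (13.3% of all genes). The study's criterion was met by 2 between the sham groups (3.72% of all genes), 0 between the ICH groups (3.52%) and 1 in the interaction (1.56%).

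*Trib3* had the largest log2FC of the 10 genes between the sham groups. Aged sham exceeded young sham in all libraries by 2.22-fold, a log2FC of 1.15 ± 0.26 with an adjusted *P* of 0.16 in edgeR and 0.0441 in DESeq2. The ICH groups had about the same *Trib3* level, with means of 1.70 CPM in young and 1.77 CPM in aged mice. The interaction, the aged response less the young one, was -1.09 ± 0.35 on the log2 scale, with an unadjusted edgeR *P* of 0.00883 and an adjusted *P* of 0.99991. These values rest on 17 to 19 counts in each young sham library and 31 to 45 in each aged sham library.

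*Atf3* had a log2FC of 1.09 ± 0.35 in aged sham vs. young sham (adjusted *P* = 0.257, edgeR), where 1 of the 3 aged libraries lay within the young range, and 0.55 ± 0.31 in aged ICH vs. young ICH (adjusted *P* = 0.604, edgeR). *Ddit3* was higher in all aged sham than in all young sham libraries, by a log2FC of 0.17 ± 0.07 (adjusted *P* = 0.328, edgeR). *Chac1* was lower in all aged ICH than in all young ICH libraries, by a log2FC of -0.39 ± 0.14 (adjusted *P* = 0.401, edgeR). For the 4 ER chaperones the log2FC of aged sham vs. young sham ran from -0.22 for *Sdf2l1* to -0.15 for *Hspa5*, and none passed the test. *Hspa5* was lower in all aged sham than in all young sham libraries. So was *Asns*, which did not pass the test either.

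The other genes of these pathways, 93 in 7 lists of which 92 were tested, were read beside the 10. In young ICH vs. young sham 27 of the 92 rose (29.35%) and 5 fell (5.435%), against 9.89% and 9.23% of all genes tested. In aged ICH vs. aged sham 24 rose (26.09%) and 2 fell (2.174%), against 7% and 6.15% of all genes tested. The median log2FC of the 92 genes was 0.12 in young and 0.16 in aged mice. None of them was called in either comparison of the ages or in the interaction. The lists were drawn up when results of these data were known.

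At the eIF2 step, 2 of 12 genes rose at both ages, against 9.89% of all genes in young and 7% in aged mice. They were *Eif2ak2*, which encodes PKR, the kinase that senses double-stranded RNA, with log2FC of 0.81 ± 0.25 in young and 0.95 ± 0.25 in aged mice, and *Ppp1r15a*, which encodes GADD34, the phosphatase subunit that ends the response, with 0.35 ± 0.11 and 0.58 ± 0.11. *Eif2ak3*, which encodes PERK and is given here for its role with its values known, had log2FC of 0.09 ± 0.08 and 0.12 ± 0.08 and did not pass the test.

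Of the further targets of ATF4 and CHOP, 9 of 13 rose and 0 fell in young mice (all genes, 9.89% and 9.23%), and 6 rose and 1 fell in aged mice (all genes, 7% and 6.15%). *Cebpb*, a transcription factor of stress and inflammation that is also strongly expressed by myeloid cells, rose with log2FC of 1.98 ± 0.30 and 1.93 ± 0.29. *Tnfrsf10b*, a death receptor induced by CHOP, rose with 1.47 ± 0.23 and 1.26 ± 0.23. *Nupr1*, a stress-induced chromatin protein, rose from 7.75 to 24.2 CPM in young mice, with log2FC of 1.65 ± 0.29 and 1.40 ± 0.28 at the 2 ages, and *Eif4ebp1*, a brake on cap-dependent translation, rose with 0.91 ± 0.24 and 1.24 ± 0.25. The one that fell in aged mice, *Stc2*, a secreted glycoprotein, had a log2FC of -0.76 ± 0.22 and was named after its value was seen. This list had the highest median of the 7, 0.45 in young and 0.56 in aged mice.

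In amino acid transport and synthesis, to which *Asns* belongs by function, the genes called went the other way from *Asns*. The log2FC was positive for 12 of the 16 other genes in young and 9 in aged mice. The lowest values were -0.26 in young and -0.34 in aged mice. At each age 5 of the 16 other genes rose and 0 fell, where 9.89% of all genes rose in young and 7% in aged mice. *Slc1a5*, a glutamine transporter, rose with log2FC of 0.98 ± 0.12 in young and 0.80 ± 0.12 in aged mice. *Slc3a2*, the heavy chain that carries several amino acid transporters to the membrane, rose with 0.44 ± 0.07 and 0.48 ± 0.07, the mitochondrial serine enzyme *Shmt2* with 0.40 ± 0.07 and 0.35 ± 0.07, and the mitochondrial enzyme *Pck2* with 0.49 ± 0.10 and 0.40 ± 0.10. *Mthfd2* of the mitochondrial folate cycle rose in young mice with 0.56 ± 0.14, and *Aldh18a1* of proline synthesis rose in aged mice with 0.27 ± 0.08. Of 12 aminoacyl-tRNA synthetases, another class of ATF4 targets, 0 rose, and 1 fell in young mice, *Wars*, with a log2FC of -0.24 ± 0.06.

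**Figure D4:**
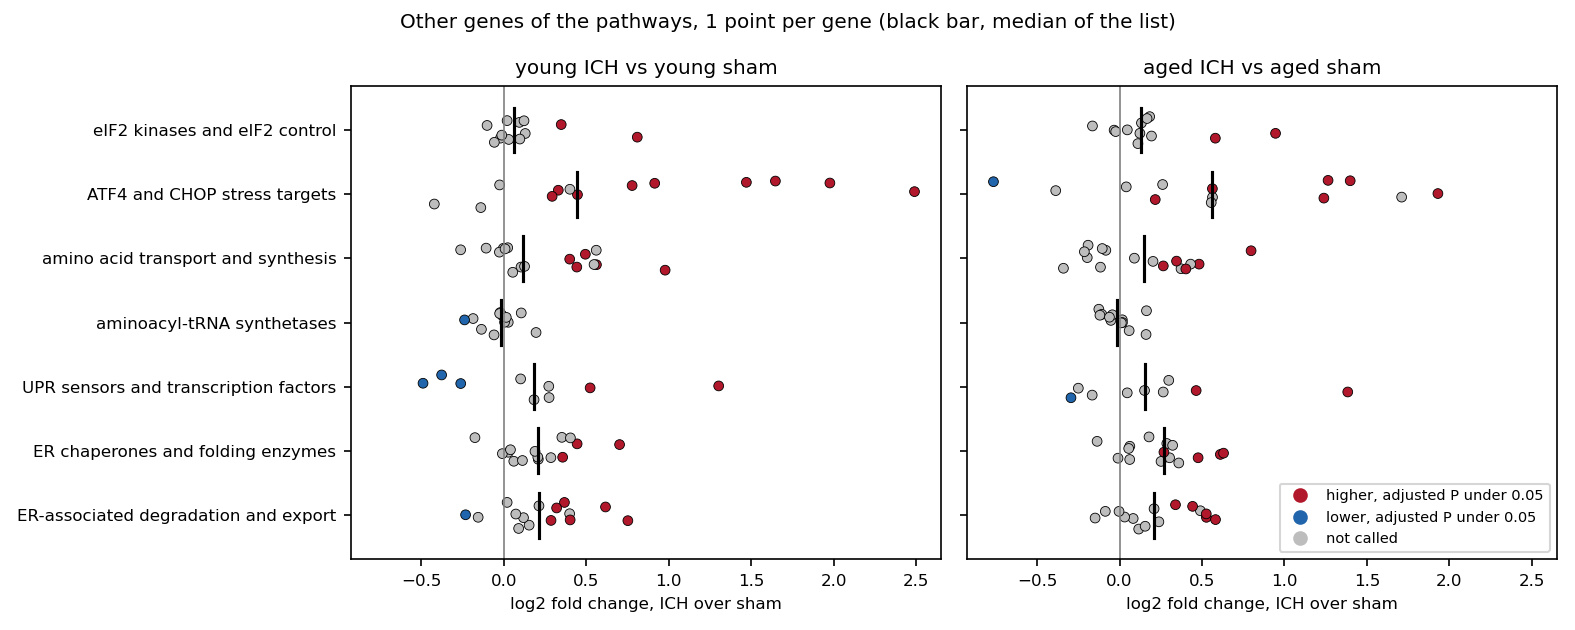
Log2 fold change of ICH over sham (horizontal axes) for the other genes of 7 pathway lists (vertical axis), in young (left) and aged (right) mice; a point is 1 gene, its color shows whether it was called higher, lower or not at all at an adjusted *P* under 0.05 in edgeR's test, and the black bar is the median of the list. The targets of ATF4 and CHOP reach farthest to the right, and the aminoacyl-tRNA synthetases lie around 0.

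The UPR sensors and their transcription factors split. In young mice 2 of 9 rose and 3 fell, against 9.89% and 9.23% of all genes. Those that rose were *Creb3l1* with a log2FC of 1.30 ± 0.28 and *Creb3l2* with 0.52 ± 0.14, which are ER-bound factors related to ATF6 that are best known from secretory cells and matrix production. A single young ICH library stood far above the rest for each. From lowest to highest, young ICH held 5.14, 6.49 and 10.7 CPM of *Creb3l1* and 26.8, 26.8 and 39.6 CPM of *Creb3l2*. Young sham reached 3.84 and 24.1 CPM. In the same comparison *Atf6* itself fell with -0.49 ± 0.10, as did the proteases that release ATF6 in the Golgi, *Mbtps2* with -0.38 ± 0.06 and *Mbtps1* with -0.26 ± 0.08. In aged mice 2 of 9 rose and 1 fell, against 7% and 6.15% of all genes. *Creb3l1* rose there with 1.38 ± 0.28 and *Mbtps1* fell with -0.29 ± 0.08. *Xbp1*, the factor activated when IRE1 splices its mRNA, rose in aged mice with 0.46 ± 0.10 and had a log2FC of 0.27 ± 0.10 in young mice that did not pass the test (adjusted *P* = 0.0665, edgeR). Counts per gene do not show the splicing of *Xbp1*.

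Of the 15 further ER chaperones and folding enzymes, 3 rose in young mice (9.89% of all genes) and 4 in aged mice (7% of all genes), and 0 fell. *Creld2*, an ER disulfide isomerase, rose from 14.4 to 23.4 CPM in young mice, with log2FC at the 2 ages of 0.70 ± 0.17 and 0.63 ± 0.17. *P4hb*, the founding protein disulfide isomerase, rose with 0.44 ± 0.11 and 0.48 ± 0.11, and *Ppib*, a prolyl isomerase of collagen folding, with 0.36 ± 0.08 and 0.27 ± 0.08. *Manf*, an ER protein with trophic action on neurons, rose in aged mice with 0.61 ± 0.13. Of the 3 genes called in young mice, *Ppib* was at 0.962 of the mean of the other two young ICH libraries in replicate 3, and *Creld2* and *P4hb* were at 1.59 and 1.34 of it.

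In ER-associated degradation and export, 6 of 15 genes rose and 1 fell in young mice (all genes, 9.89% and 9.23%), and 5 rose and 0 fell in aged mice (all genes, 7% and 6.15%). *Sec24d*, a coat protein of vesicles that leave the ER, rose with log2FC of 0.75 ± 0.14 and 0.53 ± 0.14, and the translocon subunits *Sec61b* with 0.62 ± 0.12 and 0.58 ± 0.12 and *Sec61a1* with 0.40 ± 0.09 and 0.44 ± 0.09. *Edem1*, which directs misfolded glycoproteins to degradation, rose with 0.37 ± 0.10 and 0.53 ± 0.10, and *Selenos*, a selenoprotein of the same pathway, with 0.32 ± 0.08 and 0.34 ± 0.08. *Sel1l*, the adaptor of the ubiquitin ligase of this pathway, fell in young mice with -0.23 ± 0.06 and was named after its value was seen.

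Finally, the genes whose levels over the 12 libraries were most like those of 5 of the 10 genes were looked up among the 21494 other genes tested. This is a description, since genes that respond to ICH can correlate through that response. A single high library can also raise r, and young ICH replicate 3 was the highest for *Hspa5*, *Pdia4* and *Pdia6*. Its part in r was not tested. For *Atf3* they were *Il13ra1*, *Osmr* and *Plaur*, receptors for cytokines and for urokinase, with Pearson's r of log2 CPM of 0.994, 0.993 and 0.992. For *Hspa5* they were *Surf4*, an export receptor of the ER, *Pdia4* and *Pdia6*, with r of 0.977, 0.976 and 0.964. By ranks, Spearman's rho of these with *Hspa5* was 0.937, 0.951 and 0.958. *Sdf2l1* was nearest to *Pnp*, *P2ry6* and *Manf*, with r of 0.977, 0.977 and 0.973. *Asns* was nearest to *Scamp5*, *Nsf* and *Atp6v1b2*, genes of synaptic vesicles, membrane fusion and proton pumping, with r of 0.981, 0.978 and 0.976. *Ddit3* was nearest to *2410006H16Rik*, *Gm49172* and *Ngdn*, with r of 0.970, 0.965 and 0.959.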

How the data were processed

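RNA-seq was analysed from 12 libraries of perihematomal caudate putamen, grouped by their labels. The authors aligned reads to GRCm38.p6 with Hisat2 and deposited raw counts per gene from FeatureCounts (Subread) together with FPKM, which are scaled to gene length and mapped fragments. The strand setting and the treatment of multi-mapping reads are not given in the sources used here. The depth was 28410896 to 37785160 counts per library.

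Differential expression was assessed with the quasi-likelihood F test of edgeR (version 4.0.16, with limma 3.58.1 in R 4.3.3), TMM normalization, filterByExpr with a minimum count of 10, 4 groups in one model and Benjamini-Hochberg adjustment over 21495 genes. Calls had an adjusted *P* under 0.05, two-sided. CPM used the normalized library sizes, log2 CPM a prior count of 2, and SE were computed from the F statistic. The procedure was tested on simulated data. P-values set the difference between groups against the spread between pools, not between animals. In the main fit this spread was estimated over all 4 groups. A single value of 3 against 3 libraries cannot go below 0.1 in a two-sided exact permutation test, and none was run. Alternatives were RLE normalization, other filters, DESeq2 1.42.0, limma on log2(FPKM + 1), the replicate number as a block, the compared groups alone, the study's criterion (FC above 1.5 or below 0.67 with an unadjusted *P* under 0.05) and leaving out each library.

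The 10 genes, the pathway lists and the markers were chosen with earlier results of these data known. Named from each list, per comparison with sham, were up to 3 called genes with the smallest *P*, or all where 5 or fewer were called, and for likeness the 3 genes with the highest r. Positions are those of GENCODE vM21 (GRCm38), and promoters those of RefSeq. Marker lists of astrocytes, oligodendrocytes, endothelial cells and B cells were also summed, and their ranges are given with the closing observations. One further marker list is not reported here.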

Additional observations from a re-analysis of the deposited data

How the results depend on the processing

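In young ICH vs. young sham the 5 genes called became 2 (*Atf3* and *Trib3*) when the fit held only the groups compared, and 3 (*Atf3*, *Sdf2l1* and *Trib3*) under the study's criterion, which asks for a fold change that *Ddit3* and *Asns* did not reach. They ranged from 3 to 7 when each library was left out, with 3 without young sham replicate 2 and 3 without young sham replicate 3. The 32 other pathway genes called there became 12 under the study's criterion and 17 to 33 with each library left out, 17 of them without young sham replicate 2. In aged ICH vs. aged sham the 4 genes called became 2 (*Atf3* and *Sdf2l1*) under the study's criterion and 1 to 7 with each library left out: 7 without young ICH replicate 3, 2 without aged sham replicate 1, aged sham replicate 2 or aged ICH replicate 3, and 1 without aged ICH replicate 1. The 26 other pathway genes became 11 under the study's criterion and 8 to 31, with 15, 13, 8 and 15 without aged sham replicate 1, aged sham replicate 2, aged ICH replicate 1 and aged ICH replicate 3. In aged sham vs. young sham DESeq2 called 1 gene (*Trib3*) and the study's criterion 2 (*Atf3* and *Trib3*), and in the interaction the study's criterion called 1 (*Trib3*). *Atf3* was called in both comparisons with sham, and *Trib3* in young mice, under every alternative. *Ddit3* in aged mice had an adjusted *P* of 0.0282 to 0.149 in edgeR with each library left out and lost its call in 8 of 12 such fits, and *Chac1* in aged mice had 0.0129 to 0.0816 and lost it in 4. Without a filter on low counts the young comparison lost *Ddit3* (adjusted *P* = 0.0629, edgeR) and gained *Hspa5* (adjusted *P* = 0.0464, edgeR).

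The replicate numbers did not pair the libraries, since same-numbered deviations correlated at -0.454 to 0.235. With the replicate number as a block, 5 and 3 of the 10 genes and 30 and 24 of the other pathway genes were called in young and aged ICH vs. sham, and 0 in the other comparisons; the gene lost was *Ddit3* in aged mice (adjusted *P* = 0.056, edgeR).

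The genes' log2FC and calls were compared with 990 alternative results. Among these, the study's criterion kept the log2FC of the main fit and changed only the rule for a call. Of the 990, 911 kept their direction and side of the threshold, 30 lost the call, 19 gained it and 30 changed sign. The sign changes were among values that were not called. *Atf4* in aged sham vs. young sham became 0.0075 with the filter on CPM, 0.0022 with only the groups compared and 0.045 with limma, *Hsp90b1* in young ICH vs. young sham -9.13e-06 with DESeq2, the *Pdia4* interaction 0.0026 with the block and 0.0016 with limma, and *Sdf2l1* in aged ICH vs. young ICH 0.012 with limma. With each library left out, the log2FC of aged sham vs. young sham ran from -0.082 to 0.102 for *Atf4*, and that of young ICH vs. young sham from -0.20 to 0.11 for *Hsp90b1*. That of aged ICH vs. young ICH ran from -0.11 to 0.23 for *Trib3*, -0.21 to 0.019 for *Asns*, -0.27 to 0.15 for *Hspa5*, -0.22 to 0.092 for *Hsp90b1*, -0.40 to 0.066 for *Pdia4* and -0.16 to 0.19 for *Sdf2l1*. The interaction ran from -0.0074 to 0.18 for *Atf4*, -0.034 to 0.19 for *Asns*, -0.12 to 0.29 for *Hspa5*, -0.062 to 0.25 for *Hsp90b1* and -0.18 to 0.28 for *Pdia4*. The interaction was not run on only the groups compared, since it needs all 4. The causes of these changes were not tested.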

Other observations

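Endothelial markers (7 genes, led by *Flt1*) summed to 285 to 343 CPM in young sham and 399 to 416 CPM in young ICH, and to 311 to 359 CPM in aged sham and 364 to 440.0 CPM in aged ICH, without overlap between ICH and sham at either age. Astrocyte markers (7 genes, led by *Slc1a2*) summed to 4935 to 6034 CPM over all groups. Of them, 4 rose and 0 fell in young ICH vs. young sham and 3 rose and 1 fell in aged ICH vs. aged sham (edgeR, adjusted *P* under 0.05), among them *Gfap*, the reactive astrocyte filament, which rose 2.51-fold and 2.20-fold. Of the endothelial markers 5 rose in young and 3 in aged mice, and 0 fell. Beside these astrocyte and endothelial counts, 9.89% of all genes tested rose and 9.23% fell in young mice. In aged mice 7% rose and 6.15% fell. Oligodendrocyte markers (7 genes, led by *Mbp*) summed to 4302 to 8317 CPM, lowest in aged ICH, at 4302 to 4988 CPM. There 3 of the 7 fell against aged sham, where 6.15% of all genes fell. Markers of B and plasma cells (6 genes, led by *Ighm*) summed to 20.6 to 44.0 CPM in all groups.

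Young ICH replicate 3 was further the highest of the 12 libraries for 9 of the 15 genes of ER-associated degradation and export, with a median ratio to the other two young ICH libraries of 1.11, and for 2 of the 12 aminoacyl-tRNA synthetases, with a median ratio of 0.944.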
